A study of Mus musculus with 9 samples.

Results

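The genes described here encode the insulin-like growth factor (IGF) system of the mouse eyeball: the ligands Igf1 and Igf2, the receptors Igf1r and Igf2r, and the binding proteins Igfbp2, Igfbp3, Igfbp4, Igfbp5, Igfbp6 and Igfbp7. Members were chosen by gene symbol, and the set was put forward because the mean of Igfbp2 was lower in DES than in CON. The 10 genes were all found among the 22587 genes of each deposited table, and all 10 passed the filter on low counts that left 21287 genes.

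IGF1 and IGF2 are small secreted proteins that act through the IGF1 receptor, a tyrosine kinase that signals through insulin receptor substrates to PI3 kinase and AKT. The IGF2 receptor, which is also the cation-independent mannose 6-phosphate receptor, carries IGF2 to lysosomes and clears it from the medium. Binding proteins hold the ligands outside the cell and set how much reaches the receptor. IGFBP7 is the outlying member of the family, since it binds IGFs weakly and is found around blood vessels.

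RNA sequencing was done on whole eyeballs of female BALB/C mice of WT genotype, an albino inbred strain, at postnatal day 56, in 3 groups of 3 libraries. CON mice had no treatment and drank water. DES mice were injected intraperitoneally with scopolamine, a blocker of muscarinic acetylcholine receptors used to bring on dry eye, and drank water. T.chuii mice had the same injections and were fed the green microalga Tetraselmis chuii at 300 mg/kg for 2 weeks from 6 weeks of age, per the labels. Since CON had no injection, the drug cannot be told apart from the act of injecting. The labels give 15 mice in all and do not say how many animals went into a library, so the spread between libraries may in part be technical. In whole eyeballs, fewer cells of a type and less RNA per cell cannot be told apart.

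Library totals ran from 39.1 to 64.6 M reads, and no 2 libraries of a group were alike within sampling noise (chi-square per degree of freedom of at least 32.7). Markers fixed for rods (7 genes) and corneal epithelium (7 genes) summed to at least 7570 and 10400 CPM in every library. The tables hold no count under 1 for any gene, so they cannot show a marker at 0. CON 2, DES 1 and T.chuii 1 stood apart, with rod sums of 7570 to 14300 CPM (read counts scaled to a common library size) against 25400 to 33200 CPM in the other 6. The 8 lens markers, crystallins and lens membrane genes, summed to 223 to 266 CPM in CON and 368 CPM in DES 2 against 11700 to 58500 CPM in the other 5 libraries, so lens transcripts were scarce in 4 libraries. The 3 adipocyte markers in the tables, of 6 listed, summed to 4.67 to 29.5 CPM in CON, 11.7 to 43.5 CPM in DES and 84.4 to 1560 CPM in T.chuii.

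Igfbp2 and Igfbp5 are neighbours on chromosome 1 (mm10, the assembly also called GRCm38), at 72824480 to 72852474 and 72858065 to 72874865, with 5590 bases between their ends and on opposite strands, so that their 3′ ends face each other. The other members lie apart: Igf1 on chromosome 10 (87858265 to 87937047), Igf2 and Igf1r on chromosome 7 (142650768 to 142666816 and 67952257 to 68233668), Igf2r on chromosome 17 (12682406 to 12769706), Igfbp3 and Igfbp4 on chromosome 11 (7206086 to 7215498 and 99040005 to 99052655), Igfbp6 on chromosome 15 (102144186 to 102149512) and Igfbp7 on chromosome 5 (77349240 to 77408045). Igf2r overlaps the antisense RNA gene Airn, and Igfbp7 overlaps Polr2b and Gm34648. These 3 genes are in the tables too. The labels and notes give no strand setting for the counting, and reads of such pairs may have been divided between them.

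Promoters are shown for the 3 members with groups that did not overlap in CPM in at least 1 comparison (Igfbp2, Igf1 and Igfbp7). That of Igfbp5, the neighbour of Igfbp2, is shown too. They are the 250 bases before the RefSeq start (GRCm38.p6), 5′ to 3′ on the gene's strand, and capitals mark GC boxes, GGGCGG or CCGCCC, which are binding letters of SP1-type factors. Igfbp2 has 2 starts in the table and the first is given: chr1:72824230-72824479, plus strand. Igfbp5 is at chr1:72874866-72875115, minus strand. Igfbp7 is at chr5:77408046-77408295, minus strand. Igf1 is at chr10:87860861-87861110, plus strand, ahead of a start that lies inside the gene's full span.
Igfbp2: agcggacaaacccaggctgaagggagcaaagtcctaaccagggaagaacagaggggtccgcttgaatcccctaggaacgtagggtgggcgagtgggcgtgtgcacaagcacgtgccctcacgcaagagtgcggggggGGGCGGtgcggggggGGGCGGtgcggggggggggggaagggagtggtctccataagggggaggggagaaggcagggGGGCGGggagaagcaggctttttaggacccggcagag
Igfbp5: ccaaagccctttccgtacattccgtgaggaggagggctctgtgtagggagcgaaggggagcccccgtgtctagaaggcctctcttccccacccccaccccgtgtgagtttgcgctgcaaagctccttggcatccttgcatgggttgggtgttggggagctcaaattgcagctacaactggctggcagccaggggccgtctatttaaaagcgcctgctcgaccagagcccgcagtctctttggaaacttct
Igfbp7: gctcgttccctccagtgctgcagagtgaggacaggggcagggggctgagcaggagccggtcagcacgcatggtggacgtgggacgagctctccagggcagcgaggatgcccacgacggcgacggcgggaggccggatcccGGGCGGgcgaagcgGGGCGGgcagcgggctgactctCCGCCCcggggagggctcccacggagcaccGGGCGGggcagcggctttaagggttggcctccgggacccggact
Igf1: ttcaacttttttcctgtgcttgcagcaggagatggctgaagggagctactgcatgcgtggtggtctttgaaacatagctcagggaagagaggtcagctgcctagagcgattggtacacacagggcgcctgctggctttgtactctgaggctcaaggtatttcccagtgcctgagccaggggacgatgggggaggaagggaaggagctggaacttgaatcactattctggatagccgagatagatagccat

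The Igfbp2 window holds 3 GC boxes and is 67.2% G and C, and the Igfbp7 window holds 4 and is 74% G and C. The windows of Igfbp5 (58.8% G and C) and Igf1 (52.8%) hold none, and none of the 4 windows holds the TATA box letters TATAAA or TTTATA. Over all 32851 promoters of the same length, 32.7% held a GC box and 12.4% a TATA box on either strand, and the median G and C content was 52.4%. At 1 or more starts, 5 of the 10 members had a GC box (Igf2, Igf1r, Igf2r, Igfbp2 and Igfbp7), and Igfbp4 and Igfbp6 had TATA box letters. Igf2 has 4 starts and Igfbp2 has 2, and not all of them had a GC box. The shares over all promoters count each start singly, so they are not a like measure for this count of genes. These matches describe letters only.

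Compared per transcript length, in the deposited FPKM (fragments per kilobase, adjusted for library size), binding protein mRNAs stood far above those of ligands and receptors. Igfbp7 had the highest mean, 384 ± 241 FPKM, followed by Igfbp2 at 338 ± 312 FPKM (SD, n = 9 libraries for these and the next values). The order of this pair was not fixed, since Igfbp7 was above Igfbp2 in 5 of 9 libraries. Igfbp4, which is mostly known as an inhibitor of IGF action, averaged 73.4 ± 24.9 FPKM. Igfbp6, which prefers IGF2 as its ligand, averaged 53.6 ± 16.2 FPKM and lay below Igfbp4 in 8 of 9 libraries. Igfbp5, which binds matrix and bone mineral, was at 24.3 ± 7.14 FPKM, and Igfbp3, the main carrier in serum, at 14.4 ± 3.69 FPKM. The ligands and receptors followed at 5.85 ± 0.821 FPKM for Igf1, 3.24 ± 0.691 FPKM for Igf1r, 2.17 ± 0.669 FPKM for Igf2 and 1.26 ± 0.303 FPKM for Igf2r. From Igfbp6 down, each gene was above the next in 9 of 9 libraries, as was Igfbp2 above Igfbp4.

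**Figure D1:**
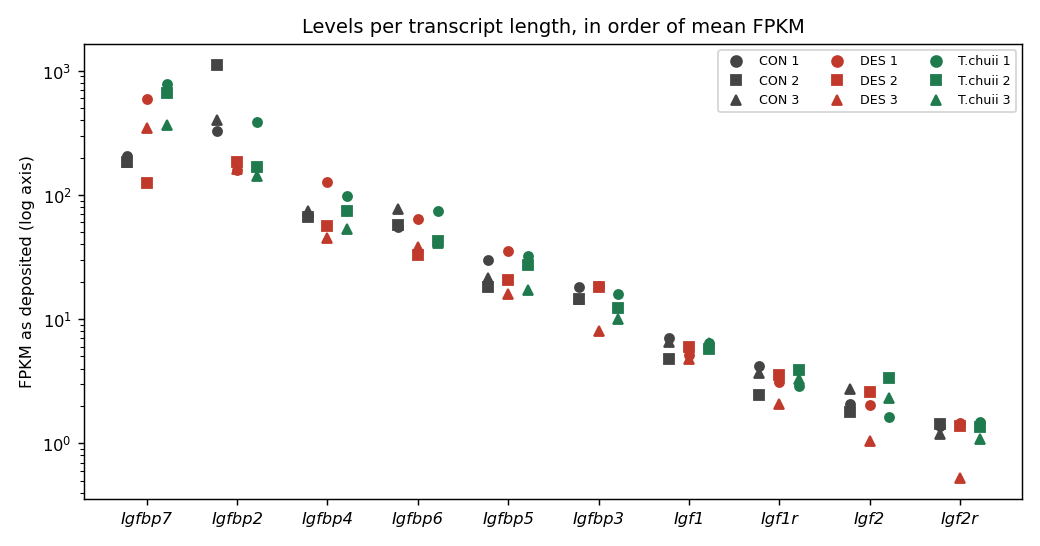
Deposited FPKM of the 10 genes on a log axis, 1 point per library, with colour for the group and shape for the library number. Igfbp7 and Igfbp2 share the top of the order and cross between libraries, while the 4 ligand and receptor genes sit at the bottom, at 0.523 to 6.98 FPKM.

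The make-up of binding protein mRNA differed between libraries mainly in its 2 most abundant genes, which together held 70.6% to 89.3% of summed Igfbp FPKM. The share of Igfbp2 was 46.3%, 76.8% and 51.8% in CON 1 to 3, 15.8%, 41.9% and 26.3% in DES 1 to 3, and 27.6%, 17.1% and 22.4% in T.chuii 1 to 3. Its share was thus largest in the CON libraries, and DES 2 came next. The CON and DES values of Igfbp2 entered the choice of the set, so nothing is read from this order. Shares are parts of the same sum, so a larger share of Igfbp2 leaves a smaller one for Igfbp7. For Igfbp7 the shares were 29.4%, 12.5% and 23.8% among CON libraries, 59.7%, 28.7% and 56.3% among DES libraries, and 56.5%, 67.2% and 58.4% among T.chuii libraries. Igfbp7 held the larger share in 5 libraries, the same 5 in which the lens markers were abundant, and Igfbp2 held it in CON and in DES 2. Whether the 2 patterns are related was not tested.

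**Figure D2:**
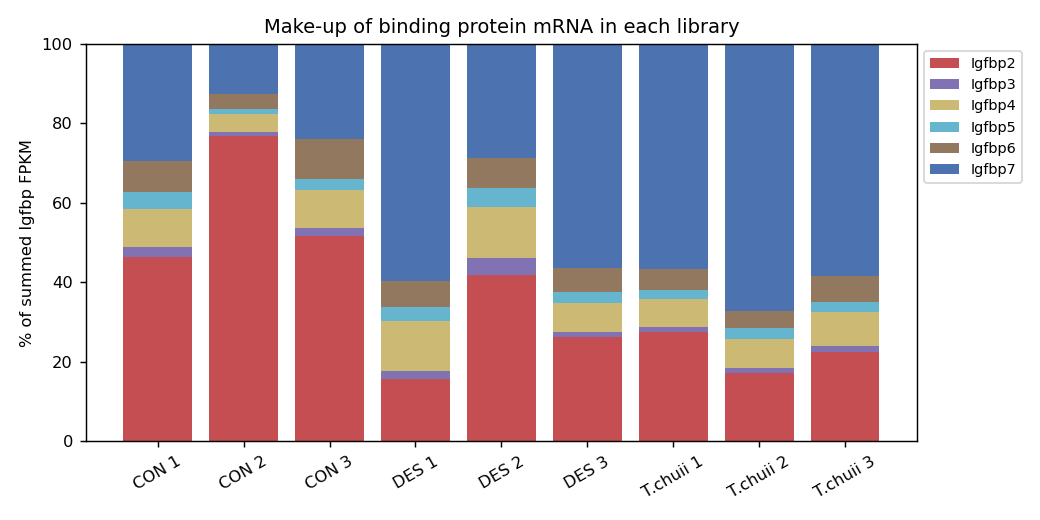
Share of each binding protein gene in summed Igfbp FPKM, in percent, 1 stacked bar per library. Igfbp2 is the largest block in CON 1 to 3 and DES 2, and Igfbp7 in the other 5 libraries, where it holds 56.3% to 67.2%.

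Summed Igfbp FPKM exceeded summed Igf1 and Igf2 FPKM by 77.5, 224 and 84 times in CON, 140, 50.8 and 106 times in DES, and 172, 109 and 72 times in T.chuii. The extremes were CON 2 and DES 2, and the 3 groups overlapped. Among ligands, Igf1 exceeded Igf2 in every library, by 1.72 to 4.56 times in FPKM.

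Between libraries, levels are given as CPM scaled by trimmed means. Igf1, the ligand that is under control of growth hormone in liver and made locally in many tissues, stood at 47.8, 38.5 and 45.2 CPM in CON 1 to 3, 40.7, 39.3 and 40.1 CPM in DES and 53.3, 44.8 and 45.2 CPM in T.chuii. The DES values lay inside the CON range, and each T.chuii value lay above each DES value. Igf1 was among the steadiest genes of the tissue, with a within-group SD of 0.12 on the log2 scale, smaller than that of all but 2.04% of 17178 genes with a mean of at least 1 CPM (median SD 0.35).

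Igf2, an imprinted fetal growth factor, was at 8.02, 6.46 and 9.14 CPM in CON, 8.32, 8.17 and 4.83 CPM in DES and 7.59, 13.9 and 7.64 CPM in T.chuii. T.chuii 2 was the high library and DES 3 the low one, and the groups overlapped. Igf2 and Igf2r rested on the fewest reads of the 10 genes, 175 to 636 and 201 to 843 per library.

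Igf1r, the signalling receptor, was at 48.8, 33.2 and 42.9 CPM in CON, 41.4, 39.3 and 29.7 CPM in DES and 39.9, 51.2 and 39.2 CPM in T.chuii. Igf2r, the clearance receptor, was at 11.8, 14.5 and 10.4 CPM in CON, 14.7, 11.4 and 5.55 CPM in DES and 15.4, 13.2 and 9.64 CPM in T.chuii. Groups overlapped for both receptors, and DES 3 was the lowest of the 9 libraries for each.

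Igfbp2, a binding protein with an RGD motif that is known from fetal tissue and cerebrospinal fluid, had the widest range of all members. Its values were 414, 1700 and 519 CPM in CON, 234, 223 and 253 CPM in DES and 592, 248 and 185 CPM in T.chuii. CON 2 stood far above the other 2 CON libraries (a 4.1-fold range), the DES libraries lay within 1.13-fold of each other, and only T.chuii 1 among the injected libraries reached the CON range. Of the genes with a mean of at least 1 CPM, 95.2% had a smaller within-group SD on the log2 scale than Igfbp2 (0.81).

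Igfbp7 was as variable, with a within-group SD of 0.85 on the log2 scale. It was at 225, 238 and 205 CPM in CON, 756, 131 and 464 CPM in DES and 1030, 833 and 413 CPM in T.chuii. CON was tight, DES ranged over 5.77-fold with DES 2 under every CON library, and all T.chuii libraries lay above CON.

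Igfbp4 was at 135, 159 and 152 CPM in CON, 294, 108 and 111 CPM in DES and 239, 171 and 110 CPM in T.chuii. Igfbp5 was at 168, 121 and 124 CPM in CON, 233, 112 and 111 CPM in DES and 219, 177 and 99.2 CPM in T.chuii. DES 1 and T.chuii 1 had the highest values of both genes.

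Igfbp3 was at 42.3, 41 and 34.7 CPM in CON, 50.1, 41 and 23.4 CPM in DES and 45.4, 33.5 and 24.4 CPM in T.chuii. Igfbp6 was at 68.3, 84.1 and 97.8 CPM in CON, 92.2, 39.1 and 57.9 CPM in DES and 112, 60.3 and 51.8 CPM in T.chuii. For Igfbp3 the lowest libraries were DES 3 and T.chuii 3, and for Igfbp6 the highest value was T.chuii 1 and the lowest DES 2. No group stood apart for Igfbp3, Igfbp4, Igfbp5 or Igfbp6.

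Single libraries held the extremes of several members at once. DES 3 was the lowest library for 4 members (Igf2, Igf1r, Igf2r and Igfbp3), T.chuii 1 was the highest for 4 (Igf1, Igf2r, Igfbp6 and Igfbp7) and DES 1 for 3 (Igfbp3, Igfbp4 and Igfbp5). In spite of their neighbouring genes, Igfbp2 and Igfbp5 kept no fixed ratio: Igfbp2 exceeded Igfbp5 in CPM by 2.46, 14 and 4.19 times in CON, 1.01, 1.99 and 2.28 times in DES and 2.71, 1.4 and 1.86 times in T.chuii.

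**Figure D3:**
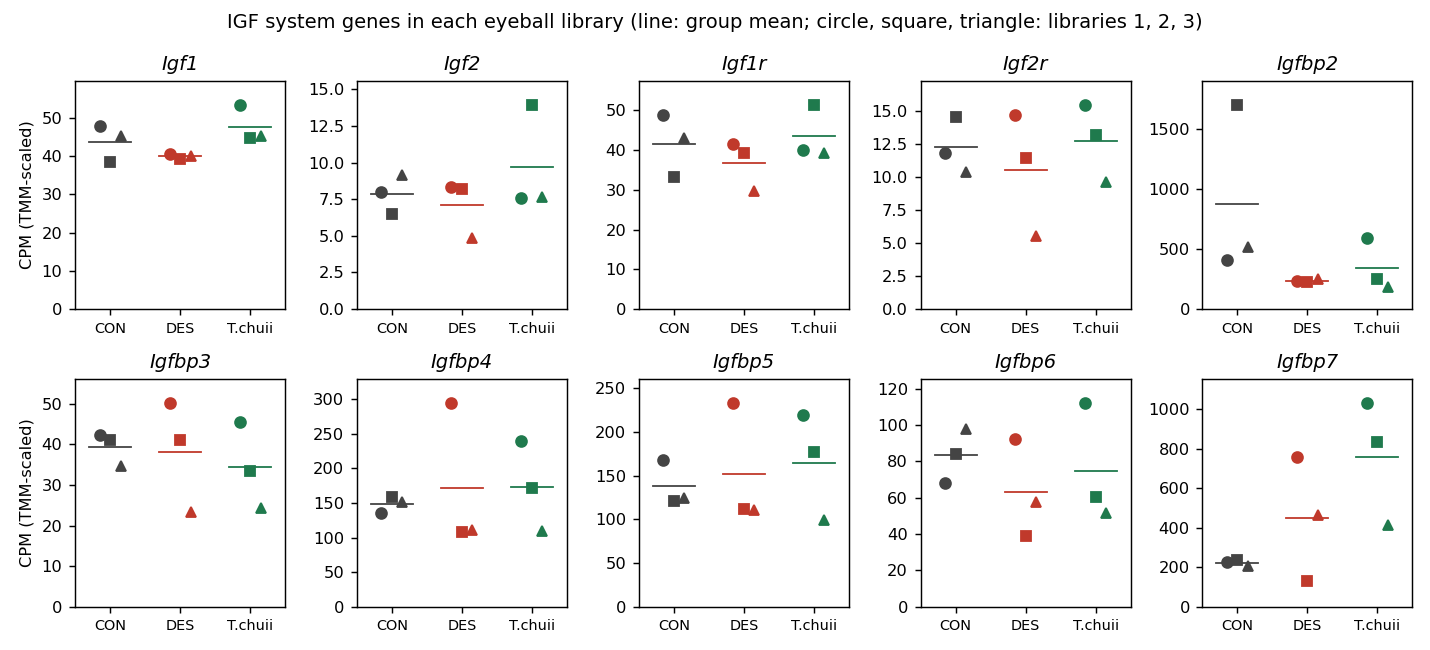
CPM of each gene in each library on linear axes that start at 0, with a line at the group mean and a shape for the library number. Igfbp2 is highest in CON 2 (1700 CPM) and flat in DES (223 to 253 CPM), and Igfbp7 is flat in CON (205 to 238 CPM) and spread in DES and T.chuii.

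DES was set against CON to see what went with scopolamine injection in the eye. The set was selected on this contrast, so its values are a description without a test. Igfbp2 averaged 877 ± 713 CPM in CON and 237 ± 14.9 CPM in DES (SD, n = 3), a CON mean 3.7 times the DES mean and a log2 change of -1.58 ± 0.53 (standard error). Every DES library was below every CON library. Without CON 2 the log2 change was -0.96 ± 0.43. The other binding proteins had log2 changes between -0.47 ± 0.36 (Igfbp6, 83.4 ± 14.8 CPM in CON and 63.1 ± 26.9 CPM in DES) and 0.71 ± 0.54 (Igfbp7, 223 ± 17 and 450 ± 313 CPM), with groups that overlapped. The Igfbp7 value depended on single libraries, with a log2 change of 1.41 ± 0.38 without DES 2 and of 0.18 ± 0.51 without DES 1.

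For ligands and receptors, log2 changes between DES and CON were -0.12 ± 0.18 for Igf1, -0.15 ± 0.33 for Igf2, -0.17 ± 0.23 for Igf1r and -0.28 ± 0.35 for Igf2r, within the range of the binding proteins. Of the 10 members, 7 had a lower and 3 a higher mean in DES, with a median log2 change of -0.14, against 47.6% of all tested genes with a higher mean and a median of -0.02. Groups did not overlap, with DES lower, for 1 member (Igfbp2) and for 1.65% of all genes, and with DES higher for 0 members and for 2% of all genes. The rule used this contrast, and nothing is read from these counts. No gene of the 21287 passed the limma-voom test (Benjamini-Hochberg adjusted p under 0.05), 235 had an unadjusted p under 0.05, and for limma on FPKM these numbers were 0 and 294.

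Markers of several cell types had lower means in DES together with Igfbp2, and none passed the test. The 8 keratocyte and scleral matrix genes, collagens and small proteoglycans, summed to 3910 to 5740 CPM in CON, 2090 to 4090 CPM in DES and 2100 to 5070 CPM in T.chuii. In DES the means of all 8 were below those in CON, 3 had groups that did not overlap (Col1a1, Col1a2 and Kera), and the sums overlapped through DES 3. The 7 corneal epithelium genes, also lower in mean in DES in 7 of 7, summed to 23000 to 70300 CPM in CON and 18200 to 43600 CPM in DES. The 6 macrophage markers, lower in mean in DES in 6 of 6 with Csf1r not overlapping, summed to 79.1 to 114 CPM in CON, 64.8 to 83.2 CPM in DES and 78.4 to 138 CPM in T.chuii. CON 2 was the highest library for the first 2 sums and for Igfbp2, and among CON libraries for the third. Other lists went the other way. All 8 lens, 8 fast skeletal muscle, 6 vascular endothelium and 5 erythroid markers had a higher mean log2 level in DES. So had 6 of 7 rod markers, and groups did not overlap for 6 of the lens markers. The part of these cell types in the Igfbp2 difference was not tested.

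By a fixed rule, the 3 genes with a pattern most like a member's over the 9 libraries were found by Pearson r of log2(CPM + 0.5) among 17177 genes. For Igfbp2 these were Col12a1, a collagen of dense connective tissue (r = 0.987), B3gnt7, a glycosyltransferase that builds keratan sulfate chains (0.986), and Slc4a11, a membrane transporter known from the corneal endothelium (0.982). Slc4a11 was at 59.9, 320 and 89.7 CPM in CON, 40.5, 42.1 and 38.3 CPM in DES and 82.2, 42.1 and 38.4 CPM in T.chuii. Like Igfbp2 it was highest in CON 2, and T.chuii 1 was its only injected library in the CON range. Such r values are the highest of very many and rest on 9 libraries that share tissue make-up, so they are descriptions.

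For Igf1 the most alike were Knop1 (r = 0.97), the chemokine gene Ccl24 (0.963) and 4932438H23Rik (0.959). For Igf2 they were Dab2ip (0.971), Zcchc14 (0.968) and Prrc2c (0.961). For Igfbp3 they were Foxo6 (0.948), B430010I23Rik (0.939) and Ltbp4, which encodes a latent TGF-beta binding protein (0.92). For Igfbp5 they were the mesenchymal transcription factor gene Foxf2 (0.957), the hemicentin gene Hmcn2 (0.946) and Klhl30 (0.939). No gene was on the lists of 2 members.

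**Figure D4:**
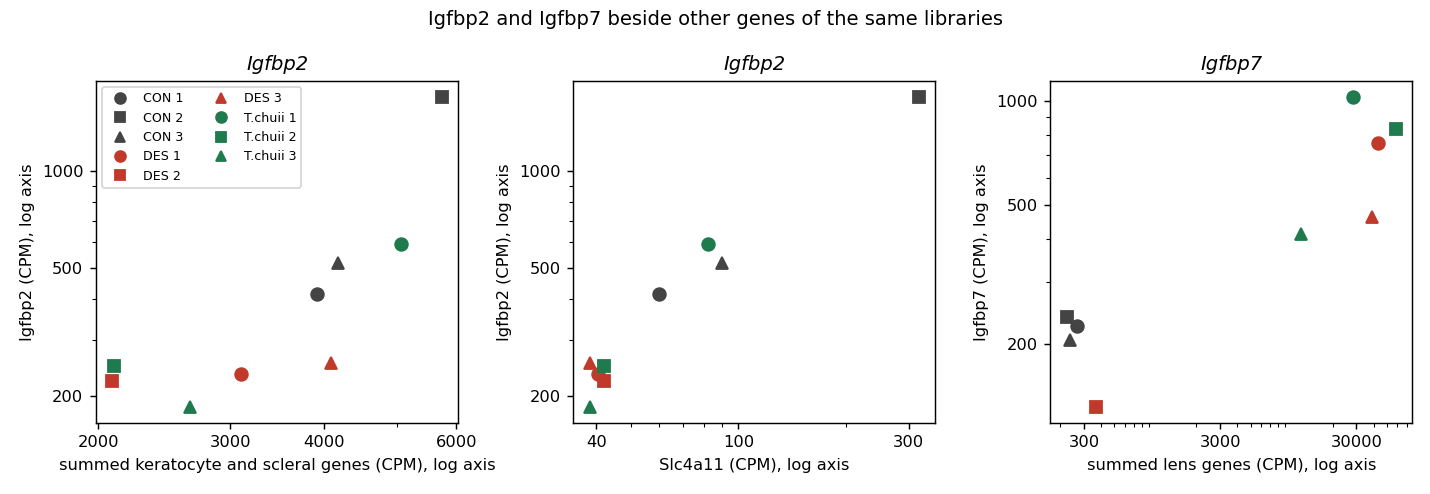
Igfbp2 against the summed keratocyte and scleral genes and against Slc4a11, and Igfbp7 against the summed lens genes, in CPM on log axes, 1 point per library. CON 2 is at the upper right of both Igfbp2 panels, and the 4 libraries low in lens genes (223 to 368 CPM) are the 4 lowest for Igfbp7 (131 to 238 CPM).

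To see what went with feeding of the alga in injected mice, T.chuii was set against DES, whose libraries also entered the comparison above. Of the members, 0 passed the limma-voom test and 0 had an unadjusted p under 0.05. Of all genes 0% passed, 233 had an unadjusted p under 0.05 (1.09%), and for limma on FPKM these numbers were 0 and 267. Blocking by library number in a fit of these 6 libraries, which deviated in same-numbered pairs, called 2 genes, neither a member. It gave 1279 genes an unadjusted p under 0.05 (6.01%), among them 0 members. No label pairs these libraries, and the pairing was taken from the same data. Blocked values and counts of pairs, here and below, are therefore descriptions. For Igf1 and Igf2r, T.chuii was the higher library in 3 of 3 pairs in scaled CPM, 2 of 10 members against 10.5% of all genes. In the same measure 0 members were lower in all pairs against 15.1%. In deposited FPKM, DES 2 was above T.chuii 2 for both genes (Igf1 5.97 and 5.72, Igf2r 1.38 and 1.34), so this count depends on the scaling. Without CON 2, DES 1 and T.chuii 1, 0 genes passed and 1167 had an unadjusted p under 0.05. Igf1 averaged 47.8 ± 4.78 CPM in T.chuii and 40 ± 0.684 CPM in DES (SD, n = 3), a log2 difference of 0.25 ± 0.18 (95% interval -0.15 to 0.65, limma-voom, Benjamini-Hochberg adjusted p = 1). In scaled CPM it was the 1 member with groups that did not overlap, higher in T.chuii, against 2.3% of all genes. In the other direction there were 0 members against 2.49% of all genes. In deposited FPKM the Igf1 groups overlapped, with DES 2 at 5.97 above T.chuii 2 at 5.72. Markers of several cell types stood higher in T.chuii together with Igf1. The 6 macrophage markers had higher means in 6 of 6, with Csf1r not overlapping, and summed to 64.8 to 83.2 CPM in DES and 78.4 to 138 CPM in T.chuii. All 8 lens, 8 fast skeletal muscle and 5 erythroid markers had a higher mean log2 level, with groups that overlapped. In the other direction, 7 of 7 corneal epithelium and 6 of 7 rod markers had a lower one. The adipocyte sums given above did not overlap between these groups, and all 3 adipocyte markers were higher in each T.chuii library. The 7 Muller glia and astrocyte markers summed to 2840 to 3330 CPM in DES and 3520 to 4370 CPM in T.chuii, with Gfap and Glul not overlapping. Of these 7, 5 had a higher mean log2 level in T.chuii and 2 a lower one (Slc1a3 -0.01 and Aqp4 -0.03). Apoe, a large part of the sum, averaged 1790 CPM in DES and 2440 CPM in T.chuii. Of 6 pigment and ciliary epithelium markers all had a higher mean in T.chuii and 2 did not overlap (Slc6a20a and Mitf), with sums of 748 to 2620 CPM in DES and 1730 to 2300 CPM in T.chuii. The part of these cell types in the Igf1 difference was not tested.

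For Igfbp2 the log2 difference between T.chuii and DES was 0.35 ± 0.51 (interval -0.77 to 1.47, limma-voom, Benjamini-Hochberg adjusted p = 1). T.chuii 1 alone was above every DES library, and without it the difference was -0.14 ± 0.47. The DES values of Igfbp2 entered the choice of the set, so this p and interval are a description only. Igfbp7 was at 760 ± 317 CPM in T.chuii and 450 ± 313 CPM in DES, a log2 difference of 0.97 ± 0.56 (interval -0.27 to 2.22, adjusted p = 1), and without DES 2 it was 0.27 ± 0.39. Differences of the other members ran from -0.14 ± 0.31 (Igfbp3) to 0.4 ± 0.33 (Igf2), each with an adjusted p of 1 by limma-voom with Benjamini-Hochberg adjustment. Of the 10 members, 9 had a higher mean log2 level in T.chuii, with a median difference of 0.25, against 45.1% of all genes and a median of -0.03. This count includes Igfbp2 and uses the DES libraries by which the set was chosen, so nothing is read from it. Leaving out T.chuii 1 turned the sign of 4 members (Igfbp2, Igfbp4, Igfbp5 and Igfbp6).

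T.chuii against CON compares injected and fed mice with untreated ones, and the CON libraries are those already set against DES. Igfbp7 averaged 760 ± 317 CPM in T.chuii and 223 ± 17 CPM in CON (SD, n = 3), a mean 3.42 times as high, and each T.chuii library was above each CON library. The log2 difference was 1.68 ± 0.56 (95% interval 0.45 to 2.91) with an unadjusted limma-voom p of 0.0123, and it failed adjustment over all genes (Benjamini-Hochberg adjusted p = 0.986). Igfbp2 averaged 341 ± 219 CPM in T.chuii and 877 ± 713 CPM in CON, with groups that overlapped through T.chuii 1. Its log2 difference was -1.23 ± 0.53 (interval -2.41 to -0.05), with an unadjusted limma-voom p of 0.0421 and a Benjamini-Hochberg adjusted p of 0.986. The CON values of Igfbp2 also entered the choice of the set, so its p and interval are a description only. Without CON 2 the Igfbp2 difference was -0.61 ± 0.44.

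The other 8 members differed between T.chuii and CON by -0.24 ± 0.31 (Igfbp3) to 0.25 ± 0.32 (Igf2) on the log2 scale, with limma-voom adjusted p between 0.986 and 0.997. Of the members, 0 passed the limma-voom test and 2 had an unadjusted p under 0.05 (Igfbp7 and Igfbp2). Igfbp2 is not independent of the choice of the set, so nothing is read from this count. Of all genes 0% passed, 912 had an unadjusted p under 0.05 (4.28%), and for limma on FPKM these numbers were 0 and 1083. Groups did not overlap, with T.chuii higher, for 1 member (Igfbp7) and 5.45% of all genes, and with T.chuii lower for 0 members and 2.97% of all genes. Means were higher in T.chuii for 7 members and lower for 3, with a median log2 difference of 0.1, against 44.6% of all genes higher and a median of -0.04.

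Markers of several tissues had higher means in T.chuii than in CON together with Igfbp7, and none passed the test. Sums of the 8 lens markers did not overlap (223 to 266 CPM in CON and 11700 to 58500 CPM in T.chuii), nor did those of 8 fast skeletal muscle genes (682 to 1820 and 2780 to 13600 CPM). Vascular endothelium, where IGFBP7 is known, was covered by 6 markers, all higher in mean in T.chuii and 1 not overlapping, that summed to 56.2 to 81.1 CPM in CON, 82.2 to 119 CPM in DES and 83.2 to 111 CPM in T.chuii. In DES 1 to 3, Igfbp7 was at 756, 131 and 464 CPM. The endothelial sums of these libraries were 119, 82.2 and 82.4 CPM, and the lens sums were 43000, 368 and 38700 CPM. Their fast skeletal muscle sums were 6850, 1890 and 1190 CPM. Sums of the 3 adipocyte markers (4.67 to 29.5 and 84.4 to 1560 CPM) and of 7 Muller glia and astrocyte markers (3060 to 3470 and 3520 to 4370 CPM) did not overlap between CON and T.chuii either. All 3 adipocyte markers, and Vim alone of the glial ones, had groups that did not overlap. Of the 7 glial markers, 5 had a higher mean log2 level in T.chuii and 2 a lower one (Glul -0.09 and Slc1a3 -0.01). Apoe, a large part of the glial sum, averaged 1950 CPM in CON and 2440 CPM in T.chuii. All 5 erythroid and 6 pigment and ciliary epithelium markers also had a higher mean log2 level in T.chuii, with Mitf not overlapping. Lower mean log2 levels in T.chuii were found for 7 of 7 corneal epithelium, 6 of 8 keratocyte and scleral matrix and 5 of 7 rod markers. The part of these cell types in the Igfbp7 difference was not tested.

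**Figure D5:**
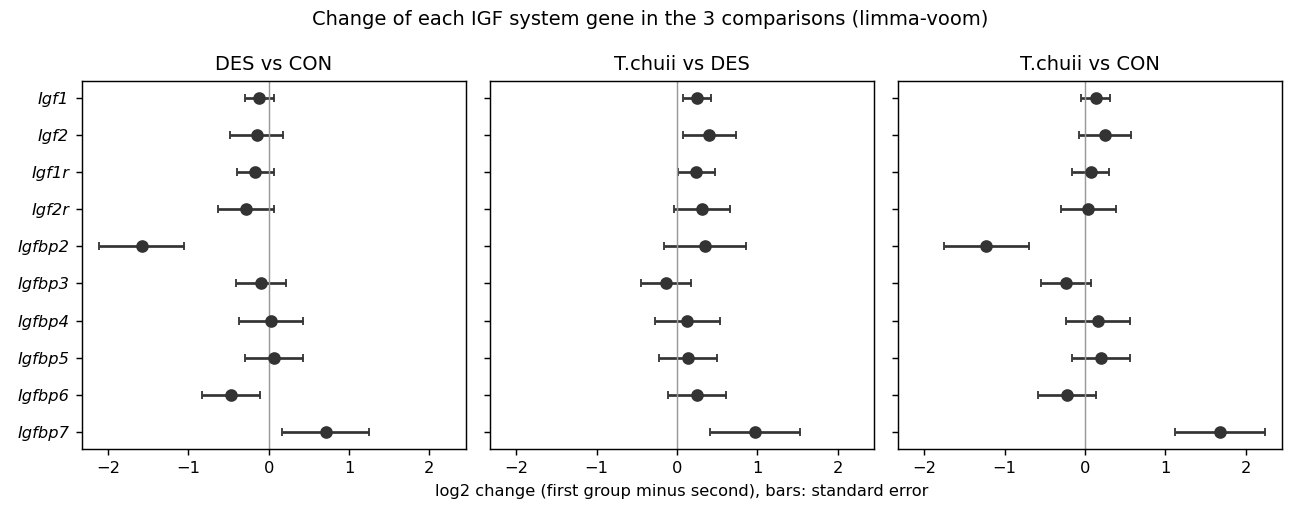
Log2 change of each gene in the 3 comparisons, first group minus second, with bars of 1 standard error from limma-voom. Igfbp2 lies left of 0 in both comparisons with CON (-1.58 and -1.23), Igfbp7 lies right of 0 in all 3 (0.71, 0.97 and 1.68), and the other genes lie between -0.47 and 0.4.

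Genes that act with the IGF system were taken from 5 lists with 60 entries, older symbols included, of which 48 were in the tables and tested. In none of the 3 comparisons did any of the 48 pass the limma-voom test, in either direction. At an unadjusted p under 0.05, 1 was higher in T.chuii than in DES (Igfbpl1, under a mean of 1 CPM). Against CON, 5 were higher (Grb14, Pappa, Esm1, Igf2bp2 and Crim1) and 1 was lower (Ccn5), where 1.09% and 4.28% of all genes had such a p in the 2 comparisons. In the blocked fit of T.chuii and DES, 5 were higher at that level (Grb14, Igfbpl1, Crim1, H19 and Slc22a3) and 1 was lower (Socs3), where 6.01% of all genes were. Igfbpl1, Slc22a3 and, against CON, Crim1 are named here after their values were seen. With DES against CON, 18 had a higher and 30 a lower mean (median log2 change -0.11). Of these, 2 did not overlap with DES higher and 4 with DES lower, where the shares over all genes are the 2% and 1.65% given above. With T.chuii against DES, 29 were higher and 19 lower (median 0.1) and the groups of every gene overlapped. Within same-numbered pairs, 13 were higher in T.chuii in 3 of 3 and 3 were lower, against 10.5% and 15.1% of all genes. The blocked fit of these 6 libraries called 0 of the 48 (smallest limma-voom adjusted p = 0.349). With T.chuii against CON, 21 were higher and 27 lower (median -0.06), and 8 did not overlap with T.chuii higher and 3 with T.chuii lower, against 5.45% and 2.97% of all genes.

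Among 14 genes of receptor signalling, Grb14, an adaptor that inhibits insulin receptor signalling, was at 13.8, 8.3 and 13.7 CPM in CON, 26.1, 13.3 and 11.2 CPM in DES and 35.6, 22.6 and 15.5 CPM in T.chuii. All T.chuii libraries exceeded CON, with a log2 difference of 1 ± 0.4 (limma-voom, Benjamini-Hochberg adjusted p = 0.986). Irs1, the docking protein below both the insulin and the IGF1 receptor, was at 6.12, 5.03 and 5.59 CPM in CON, 7.54, 5.9 and 5.33 CPM in DES and 7.57, 9.45 and 7.05 CPM in T.chuii. Its groups also did not overlap between T.chuii and CON (0.52 ± 0.25, adjusted p = 0.986 by the same test). Against DES both genes overlapped between groups, while T.chuii was the higher library in 3 of 3 pairs. Their log2 differences were 0.53 ± 0.39 for Grb14 and 0.35 ± 0.25 for Irs1 (limma-voom adjusted p = 1), and with the block 0.56 ± 0.17 and 0.37 ± 0.23 (adjusted p = 0.526 and 0.991).

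Of 8 tested genes for proteases and complex partners of the binding proteins, Pappa, the metalloprotease that cleaves IGFBP4 and frees IGF, was at 1.61, 1.15 and 1.48 CPM in CON, 3.35, 1.75 and 2.21 CPM in DES and 2.98, 4.19 and 1.63 CPM in T.chuii. CON was below T.chuii throughout, by a narrow margin at T.chuii 3 (log2 difference 0.95 ± 0.41, limma-voom Benjamini-Hochberg adjusted p = 0.986). Stc2, an inhibitor of PAPP-A, was at 1.7 ± 0.969 CPM in CON and 0.785 ± 0.497 CPM in T.chuii (SD, n = 3), with groups that overlapped (-1.16 ± 0.53, adjusted p = 0.986). Against DES, Stc1, a related inhibitor, differed by 0.23 ± 0.23 and Htra1, a serine protease with an IGFBP domain, by 0.21 ± 0.28 on the log2 scale (limma-voom adjusted p = 1).

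For the imprinted Igf2 and Igf2r loci and the proteins that bind Igf2 mRNA, 7 genes were tested. Igf2bp2, an RNA-binding protein gene, was at 1.99, 1.74 and 1.61 CPM in CON, 3.75, 2.24 and 1.9 CPM in DES and 4.43, 4.41 and 2.48 CPM in T.chuii, above CON in each T.chuii library (log2 difference 1.03 ± 0.36, limma-voom Benjamini-Hochberg adjusted p = 0.986). H19, the maternally expressed RNA next to Igf2, was at 5.75 ± 3.16 CPM in T.chuii and 3.2 ± 2.03 CPM in DES (0.82 ± 0.55, adjusted p = 1), and with the block 0.86 ± 0.23 (limma-voom adjusted p = 0.43). H19 and Igf2bp2 were higher in T.chuii than in DES in 3 of 3 pairs, Igf2bp2 by 0.53 ± 0.26 with the block (adjusted p = 0.922). Airn, the paternally expressed RNA that overlaps Igf2r, was at 4.94 ± 1.03 CPM in T.chuii and 3.1 ± 1.13 CPM in CON (0.7 ± 0.36, adjusted p = 0.986), and the groups compared overlapped for H19 and Airn.

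The growth hormone axis had 8 tested genes. Socs3, a feedback inhibitor of JAK signalling, was at 12.2, 7.3 and 6.49 CPM in CON, 9.35, 6.89 and 5.27 CPM in DES and 6.22, 5.89 and 2.95 CPM in T.chuii. Each T.chuii library was below each CON library (log2 difference -0.79 ± 0.38, limma-voom Benjamini-Hochberg adjusted p = 0.986), and T.chuii overlapped with DES (-0.58 ± 0.39, adjusted p = 1). In 3 of 3 pairs it was lower in T.chuii than in DES, with a blocked difference of -0.53 ± 0.22 (limma-voom adjusted p = 0.82). Its relative Socs1 differed by -0.67 ± 0.45 from CON, and Jak2, the kinase of the growth hormone receptor, by -0.22 ± 0.22 from DES on the log2 scale, both with overlap (limma-voom adjusted p = 0.986 and 1).

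Of 11 tested genes for other proteins with an IGFBP domain, Esm1, a proteoglycan gene of activated endothelium, was at 2.61, 1.36 and 2.5 CPM in CON, 9.11, 3.69 and 3.84 CPM in DES and 6.61, 5.54 and 3.12 CPM in T.chuii. Both injected groups lay above CON throughout, with a log2 difference of 1.22 ± 0.46 for T.chuii (limma-voom, Benjamini-Hochberg adjusted p = 0.986). Ccn5, a matricellular gene, was at 10.9 ± 3.49 CPM in CON and 6.33 ± 1.91 CPM in T.chuii (SD, n = 3), with each T.chuii library below each CON library (-0.79 ± 0.34, adjusted p = 0.986). Against DES, Crim1, a membrane protein that binds bone morphogenetic proteins, differed by 0.51 ± 0.3 and Ccn2, the connective tissue growth factor gene, by 0.33 ± 0.4 on the log2 scale, both with overlap (limma-voom adjusted p = 1). All 3 pairs had more of both in T.chuii, by 0.51 ± 0.2 and 0.34 ± 0.18 with the block (adjusted p = 0.762 and 0.958).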

How the data were processed

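Libraries were made from total RNA of eyeballs with a kit for stranded mRNA libraries, per the labels. The authors deposited a read count and an FPKM value per gene and library, per the file headers. The build mm10, the aligners HISAT2 2.1.0 and Bowtie2 2.3.4.1, the assembler StringTie 2.1.3b, the trimmer Trimmomatic 0.38 and the quality tool FastQC 0.11.7 are named, per the submitters' processing notes, while the counting step and row filter are not given in the sources used here. The smallest deposited count was 1 in every library.

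Rows hold a varying number of cells, so counts and FPKM were read from the right end. A quasi-likelihood count test was planned if columns could be checked as counts by header position. They could not, so limma-voom, planned for that case, took its place, and no other count tool was used. The 21287 genes tested had 15 or more reads in all and, in 3 or more libraries, a scaled count worth 10 reads at median library size. Scaling used trimmed means of M-values (trims 0.3 and 0.05, own code), and CPM are counts so scaled. Limma 3.58.1 in R 4.3.3 fitted 3 group means to 9 libraries (6 residual degrees of freedom, two-sided, Benjamini-Hochberg over all genes, threshold 0.05), and standard errors, 95% intervals and log2 changes come from it. The code was tested on simulated data with 200 changed genes.

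Members and lists were chosen with earlier results of these data known. Named genes are the 10 members, per list and tested comparison at most 2 genes with the smallest p and a mean of at least 1 CPM, and the 3 most alike genes for each of 5 members. Gene IDs were matched to RefSeq (GRCm38.p6), which held 22534 of 22587, and all 10 members had a promoter there. Python 3.11.15, pandas 2.3.3 and matplotlib 3.10.9 were used. File headers number libraries differently from the titles. Same-numbered DES and T.chuii libraries deviated together (correlations of deviations from the group mean of 0.66, 0.43 and 0.21), a pairing that comes from the data and not from the labels. For DES and CON these were -0.4, -0.29 and 0.36, and for T.chuii and CON -0.38, -0.44 and 0.36.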

Additional observations from a re-analysis of the deposited data

How the results depend on the processing

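Under 18 planned settings and 1 chosen after the data were seen, no member passed the test in either tested comparison. The test was limma-voom, or limma on log2 FPKM in the settings that used FPKM. The planned setting without CON 2, DES 1 and T.chuii 1 left out libraries that stood apart in these same data. The adjusted p of Igfbp7 in T.chuii against CON ranged from 0.332 to 1, and its log2 difference kept its sign, as did that of Igfbp2. The smallest number of reads behind a member was 175, for Igf2 in DES 3. Over all genes the limma-voom test called 0. Leaving out 1 library at a time gave 0 to 15 in DES against CON and 0 to 18 in T.chuii against CON, the highest without DES 2 in each, and 0 each time in T.chuii against DES. Fitting only 6 libraries gave 12 in T.chuii against CON, and leaving out CON 2, DES 1 and T.chuii 1 together gave 1. A replicate block over 9 libraries called 0 in each comparison. A block in a fit of DES and T.chuii alone, added after seeing the data, called 2 genes, both higher in T.chuii and neither a member (Igf1 0.25 ± 0.16, adjusted p = 0.994, Igfbp7 1.01 ± 0.48, adjusted p = 0.903, limma-voom), and it changed no call of a member or list gene.

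In the tested comparisons, signs turned for differences of at most 0.35 in size. Without CON 2, DES 1 and T.chuii 1 together, Igfbp2 in T.chuii against DES was -0.15, and in T.chuii against CON Igf1 was -0.05, Igf1r -0.03, Igfbp4 -0.06 and Igfbp5 -0.13. With limma on log2(FPKM + 0.1), Igf1r was -0.01 and Igf2r -0.03 in T.chuii against CON, and with log2(FPKM + 1) -0.01 and -0.02. Leaving out 1 library at a time, the ranges in T.chuii against DES were -0.14 to 0.7 for Igfbp2, -0.45 to 0.09 for Igfbp3, -0.14 to 0.6 for Igfbp4, -0.1 to 0.49 for Igfbp5, -0.09 to 0.57 for Igfbp6 and -0.05 to 0.6 for Igf2r. In T.chuii against CON they were -0.03 to 0.4 for Igf2, -0.09 to 0.19 for Igf1r, -0.11 to 0.23 for Igf2r, -0.11 to 0.45 for Igfbp4 and -0.04 to 0.53 for Igfbp5. In DES against CON, which was not tested, they were -0.29 to 0.08 for Igf2, -0.57 to 0.09 for Igf2r, -0.32 to 0.21 for Igfbp3, -0.44 to 0.27 for Igfbp4 and -0.29 to 0.25 for Igfbp5. The cause was not tested. The planned second count tool was not run.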
